A study of Mus musculus with 16 samples.

Results

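The genes described here encode proteins that write, remove and read DNA methylation, and the data are their expression in splenic CD4 T cells. They were picked by symbol for those roles, with earlier results of these arrays known, and are Dnmt1, Dnmt3a, Dnmt3b, Tet1, Tet2, Tet3, Mbd2 and Uhrf1. The array annotation lists 15 of its 45141 probe sets under 7 of the 8 symbols, namely 5 for Dnmt3a, 2 each for Dnmt3b, Tet2, Mbd2 and Uhrf1, and 1 each for Dnmt1 and Tet3. No probe set was listed for Tet1, which is not analysed here.

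Methylation of cytosine in CG dinucleotides is copied onto the new DNA strand after replication by Dnmt1, which Uhrf1 recruits to hemimethylated sites, whereas Dnmt3a and Dnmt3b place methyl groups at sites that had none. The Tet enzymes oxidise methylcytosine, which starts its removal, and Mbd2 binds methylated CG and brings the NuRD chromatin remodelling complex to it. In regulatory T cells (Tregs), a CD4 lineage that needs Foxp3 and restrains other lymphocytes, an intronic element of Foxp3 and elements of several other Treg genes are demethylated, and conventional CD4 T cells (Tconv) keep those elements methylated.

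The arrays, 4 per group, held Tregs and Tconv sorted from spleens of NOD/LtJ mice aged 6 weeks. In 2 groups, called WT, the mice carried the transgene Tg(Foxp3-EGFP/cre)1aJbs, in which Foxp3 control sequences drive a fusion of EGFP and Cre. In the other 2 groups, called KI, they carried Foxp3tm2Ayr, the Foxp3gfp knock-in, which joins GFP to the Foxp3 protein itself. A comparison of KI with WT therefore also compares a transgene with a changed endogenous locus, and every mouse carried a reporter. The protocol in the labels describes the sorted cells as CD3 and CD4 positive and GFP negative, also for the samples labelled as Tregs, so how Tregs were gated is unclear. It is not stated whether each array is a different mouse, so p-values measure the spread between these samples, which may be technical.

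The values are log2 expression after RMA, on which 1 unit is a doubling. Foxp3 ranged from 9.39 to 10.16 over the 8 Treg arrays and from 3.57 to 4.96 over the 8 Tconv arrays, so it separated the labelled cell types on every array. The median of the nonspecific control probe sets was 2.60 and their highest reading 4.71, and array medians lay between 3.69 and 3.76. Precision is limited by the number of arrays. The titles number the arrays 4 to 9 (WT), 13 to 23 (KI) and 24 to 27 (1 array of each group, replicate 4 throughout).

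Sequences just before an annotated start of Uhrf1, Dnmt3a and Tet2 are shown because CG dinucleotides are the substrate of these enzymes. By the test given below, these genes were higher in Tregs than in Tconv of WT mice. In KI mice this held for Uhrf1 and Dnmt3a but not for Tet2. The starts are internal ones, since all the printed sequences lie within the gene spans given below. The sequences are from RefSeq, assembly GRCm38.p6, from C57BL/6J, and cover the 250 bases before the start, with each CG in capitals. The Uhrf1 sequence lies at chr17:56304063-56304312 on the plus strand, the Dnmt3a sequence at chr12:3806730-3806979 on the plus strand, and the Tet2 sequence at chr3:133544391-133544640 on the minus strand.
Uhrf1: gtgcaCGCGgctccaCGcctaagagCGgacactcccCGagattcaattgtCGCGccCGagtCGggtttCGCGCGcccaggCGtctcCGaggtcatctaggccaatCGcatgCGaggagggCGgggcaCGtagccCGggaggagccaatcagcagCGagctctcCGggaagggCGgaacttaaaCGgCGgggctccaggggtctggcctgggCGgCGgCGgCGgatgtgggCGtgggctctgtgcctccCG
Dnmt3a: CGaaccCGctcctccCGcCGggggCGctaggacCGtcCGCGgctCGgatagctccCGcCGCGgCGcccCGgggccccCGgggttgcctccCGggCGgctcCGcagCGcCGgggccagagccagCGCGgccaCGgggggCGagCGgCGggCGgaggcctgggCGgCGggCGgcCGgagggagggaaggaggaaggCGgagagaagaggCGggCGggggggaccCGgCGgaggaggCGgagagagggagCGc
Tet2: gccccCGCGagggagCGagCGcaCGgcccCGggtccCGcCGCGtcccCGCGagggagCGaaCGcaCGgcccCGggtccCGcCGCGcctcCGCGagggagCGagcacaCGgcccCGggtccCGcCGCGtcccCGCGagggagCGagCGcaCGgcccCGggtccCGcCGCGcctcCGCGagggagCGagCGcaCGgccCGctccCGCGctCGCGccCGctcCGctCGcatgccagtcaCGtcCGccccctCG
With 50 further bases after the start, the windows held 33 CG at this Uhrf1 start, 46 at Dnmt3a and 57 at Tet2, against a median of 7 over 32851 RefSeq promoter windows of the same length. Fewer CG were present in 91.4%, 98.4% and 99.8% of those windows. Other starts are annotated, with 12 CG at the other Uhrf1 start, which opens the gene span, and 47 and 18 at 2 more Dnmt3a starts. Words that E2F factors, the regulators of S phase genes, are known to bind (TTTCGCGC, TTTGGCGC, TTTCCCGC and TTTGGCGG, searched on both strands) occurred in 777 of all windows (2.37%). This Uhrf1 window held TTTCGCGC, and a Dnmt1 window at chr9:20952574-20952873 held TTTCGCGC and TTTGGCGC. No such word was found at the 2 other Dnmt1 starts, in the windows of Dnmt3a, Dnmt3b, Tet1, Tet2 or Tet3, or at the other Uhrf1 start.

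In WT mice, Uhrf1, Dnmt3a and Tet2 were higher in Tregs than in Tconv, and the arrays of the groups did not overlap for any of the 3. Uhrf1 was 1.54-fold, Dnmt3a 1.30-fold and Tet2 1.25-fold higher. No member was lower, and the differences of Dnmt1, Dnmt3b, Tet3 and Mbd2 did not pass the test. The test was limma over 8139 genes with Benjamini-Hochberg adjustment, passed at an adjusted p under 0.05, with each gene represented by its probe set of highest mean. The 3 of 7 stand beside 34.6% of all genes that passed in either direction and 16.7% that passed as higher in Tregs. Arrays of the groups did not overlap for 37.2% of all genes.

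In KI mice, Uhrf1 and Dnmt3a were again higher in Tregs than in Tconv, by 2.36-fold and 1.32-fold, without overlap between the groups, and no other member passed. Among all genes, 41.1% passed in this comparison, 21.2% as higher in Tregs, and 34.7% had arrays that did not overlap. Over the 7 members the median difference was 0.09 in WT and 0.02 in KI mice, against -0.03 and -0.02 over all genes tested.

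**Figure D1:**
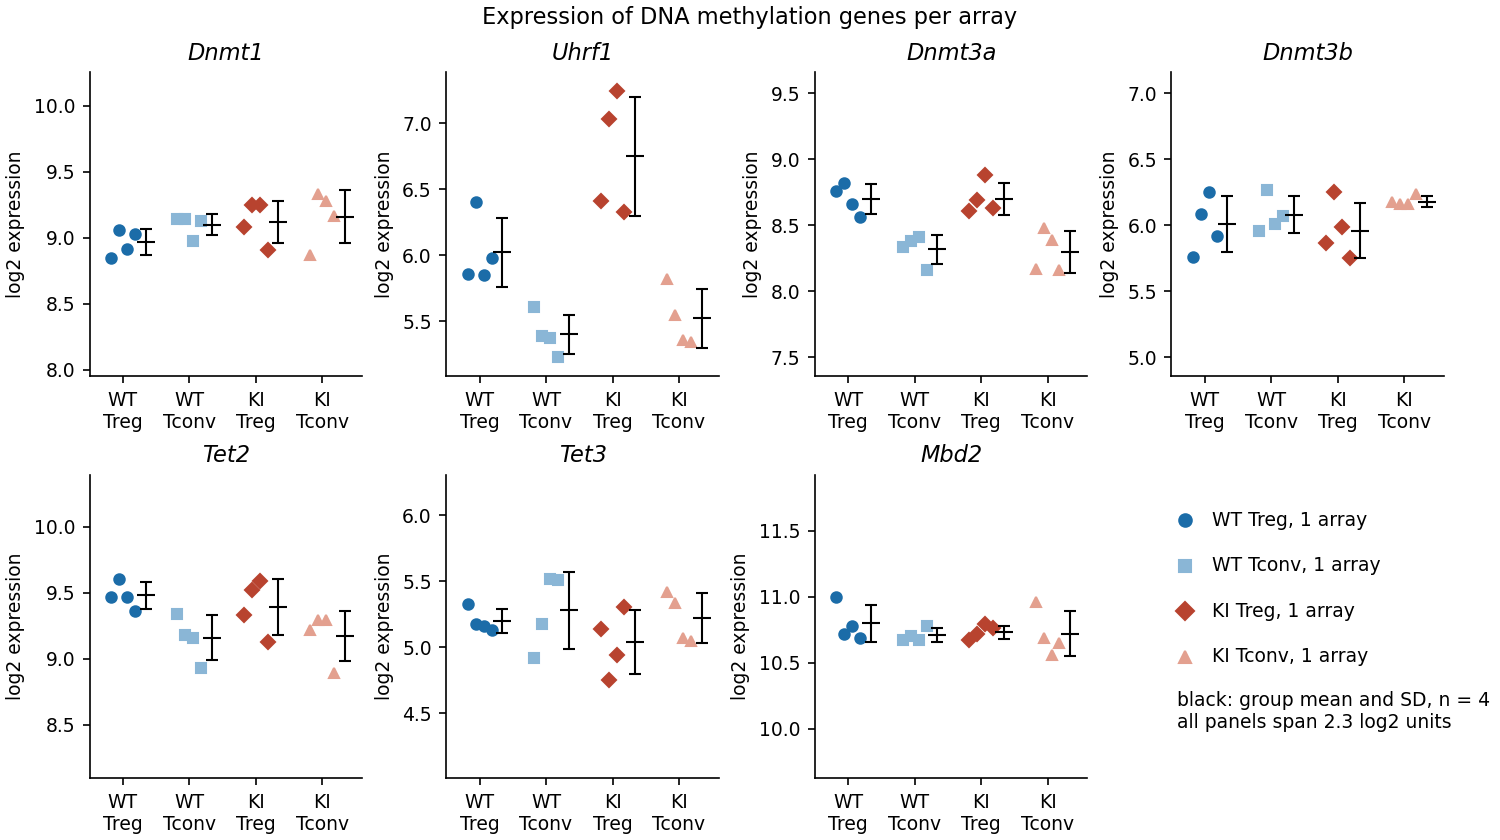
Log2 expression of the 7 measured genes on each array, by group (WT Treg, WT Tconv, KI Treg, KI Tconv; 1 symbol per array, black bar and whiskers for mean and SD, n = 4). Panels have different levels but the same span of 2.3 log2 units. Uhrf1 reaches 7.24 in KI Tregs and stays at or under 5.82 in Tconv, whereas the groups of Dnmt1 and Mbd2 lie on top of each other.

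Uhrf1 (chr17:56303337-56323486 in GRCm38.p6) is the factor that ties Dnmt1 to replicating DNA. It read 5.86, 6.40, 5.85 and 5.98 in WT Tregs and 5.61, 5.39, 5.37 and 5.23 in WT Tconv. In KI mice it read 6.41, 7.03, 7.24 and 6.33 in Tregs and 5.82, 5.55, 5.36 and 5.34 in Tconv. Every Treg array was above every Tconv array, although the lowest Treg value, 5.85, was close to the highest Tconv value, 5.82. The Treg minus Tconv difference was 0.62 (SE 0.187, limma adjusted p = 0.0146) in WT and 1.24 (SE 0.187, limma adjusted p = 3.42e-05) in KI mice. The WT call rested partly on WT Treg replicate 2, the highest WT array, without which the difference was 0.50 (limma adjusted p = 0.0606).

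KI Tregs had 1.66-fold more Uhrf1 signal than WT Tregs, a difference of 0.73 (95% interval 0.34 to 1.12, limma adjusted p = 0.0432). It was the member that passed between the Treg groups, 1 of 7, beside 2.84% of all genes in either direction and 1.99% as higher in KI. The groups overlapped, since KI Treg replicate 4 at 6.33 lay under WT Treg replicate 2 at 6.40, and 8.12% of all genes had arrays that did not overlap. The call passed under 13 of 29 tested alternatives, with adjusted p-values from 0.0122 to 0.705, and was lost when any 1 of WT Treg replicates 1, 3 and 4, WT Tconv 2 and 3, KI Treg 2 and 3 or KI Tconv 2 and 3 was left out (0.57 to 0.73). With the 3 runs of array numbers as a block the limma adjusted p was 0.705 for a difference of 0.54. On the arrays numbered 24 to 27 alone, KI and WT Tregs read 6.33 and 5.98, a difference of 0.35 with no replicate. Array number and genotype cannot be told apart outside those 4 arrays. In Tconv the KI minus WT difference was 0.12 (95% interval -0.28 to 0.51).

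The order of Uhrf1 levels was therefore KI Tregs, WT Tregs, KI Tconv and WT Tconv, and the last neighbours did not differ beyond their spread. The interaction, which is the Treg minus Tconv difference in KI less the one in WT mice, was 0.61 (SE 0.265) with a limma p of 0.0335 that rose to 0.531 after adjustment, so a larger Treg difference in KI mice was not established. The other Uhrf1 probe set (1415811_PM_at) did not exceed the filter of a log2 value of 5 on at least 4 arrays. It averaged 3.80 in WT and 4.21 in KI Tregs and 3.57 and 3.70 in WT and KI Tconv, near the level of the control probe sets. None of its 4 comparisons passed by a two-sided exact permutation test (lowest exact p = 0.0857, adjusted p = 0.286 over 8 tests, smallest possible p = 0.0286). At 5 to 7 log2 units the main probe set is itself not far above background, where folds are understated.

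Genes of DNA replication and mitosis are given beside Uhrf1. Of 23 listed DNA replication genes, 18 passed the filter and were tested. Of these, 6 were higher and 1 lower in Tregs of WT mice, and 11 were higher and 1 lower in Tregs of KI mice. The median differences were 0.27 and 0.49, against -0.03 and -0.02 over all genes. The share that passed in either direction over all genes was 34.6% in WT and 41.1% in KI mice, so the WT count lay near that background. As higher in Tregs, 16.7% and 21.2% of all genes passed, and the counts of higher replication genes were above those shares. The KI count includes Cdc6 and Gins2, which both averaged 5.56 in KI Tregs. In KI Tconv they averaged 4.02 and 4.67, under the highest control reading. Such genes can pass the filter through their KI Treg values alone, so the KI count depends on the filter. Rrm2, a subunit of the reductase that makes deoxynucleotides, was higher by 0.92 in WT Tregs (SE 0.275, limma adjusted p = 0.0141) and by 1.89 in KI Tregs (SE 0.275, limma adjusted p = 2.14e-05). Of 13 listed mitosis genes, 8 passed the filter and were tested. Of these, 1 (Mki67) was higher in WT Tregs and all 8 in KI Tregs, with median differences of 0.49 and 1.88. Birc5 and Ccna2 averaged 4.94 and 4.76 in KI Tconv, under the filter level of 5, so this count depends on the filter too. Between KI and WT Tregs, Cdc6, which licenses replication origins, was the 1 of 18 replication genes that passed. It averaged 5.56 in KI Tregs against 4.48 in WT Tregs, a level under the highest control reading. It was therefore tested mainly through its KI Treg values, and the size of its difference is not known. Of the mitosis genes 2 of 8 passed, beside 2.84% of all genes. Ccnb2, a mitotic cyclin, was higher by 2.06 (limma adjusted p = 0.00273), and Cdc20, an activator of the anaphase-promoting complex, was higher by 0.82 (limma adjusted p = 0.00853). In that comparison the difference was positive for 17 of 18 replication genes and all 8 mitosis genes, and most of these did not pass. The list medians were 0.30 and 0.95, against 0.04 over all genes. These genes were read on the same arrays, so their signs are not independent. The interaction passed for 1 of 8 mitosis genes, Ccnb2 (2.25, limma adjusted p = 0.036), and for 0 of 18 replication genes, beside 0.786% of all genes.

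Array by array, the mean of the replication genes was 7.23, 7.59, 7.38 and 7.34 in WT Tregs, with the highest value on the array where Uhrf1 was highest. Its lowest value there was on replicate 1, whereas Uhrf1 was lowest on replicate 3. In KI Tregs it was 7.61, 7.90, 7.99 and 7.46, highest and lowest where Uhrf1 was highest and lowest. It ranged from 7.02 to 7.31 in WT Tconv and from 7.13 to 7.30 in KI Tconv. The mitosis mean lay between 5.42 and 6.92 in WT Tregs and between 6.66 and 7.47 in KI Tregs, and between 5.14 and 6.27 in WT Tconv and between 4.92 and 5.80 in KI Tconv. WT Tconv replicate 1, at 6.27, was above 3 of the 4 WT Treg arrays, while its Uhrf1 value of 5.61 was under all of them. The part of these genes in the Uhrf1 differences was not tested. Since these are bulk samples, a larger share of cycling cells and more Uhrf1 RNA per cell cannot be told apart.

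**Figure D2:**
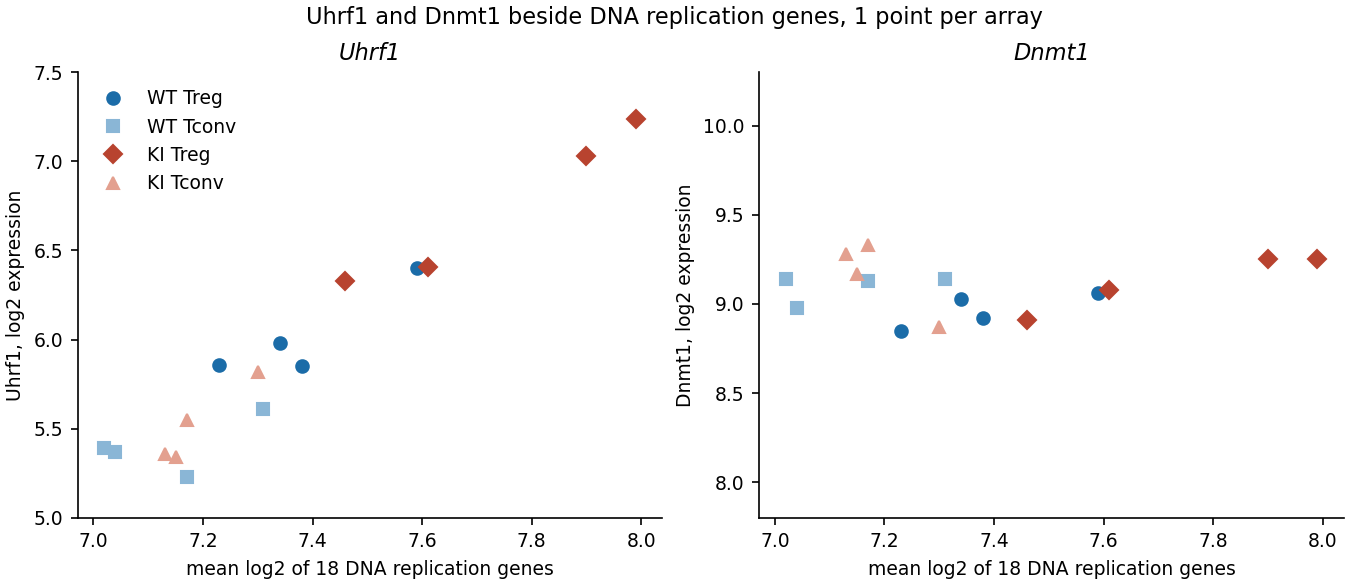
Log2 expression of Uhrf1 (left) and Dnmt1 (right) against the mean log2 value of 18 tested DNA replication genes, 1 point per array, with symbols for the 4 groups and vertical axes of equal span. Uhrf1 runs from 5.23 to 7.24 along the replication mean, whereas Dnmt1 stays between 8.85 and 9.33.

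The genes whose log2 values followed Uhrf1 most closely over the 16 arrays were Cdc6 (Pearson r = 0.959), Rrm2 (0.958) and Cenpk, a kinetochore gene (0.956). Cdc6 was among the tested genes mainly through its KI Treg values, where Uhrf1 was highest, so its place in this ranking depends on the filter. Over deviations from the group means the closest genes were Cdca5 (0.884), the origin recognition subunit Orc6 (0.867) and Shcbp1 (0.856). Dnmt1, the enzyme that Uhrf1 recruits, had an r of 0.06 with Uhrf1 over log2 values and of 0.33 over deviations. These correlations are descriptions over arrays that share groups and processing.

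Dnmt1 (chr9:20907206-20959888) did not separate any pair of groups. It read 8.85, 9.06, 8.92 and 9.03 in WT Tregs and 9.14, 9.14, 8.98 and 9.13 in WT Tconv, 9.08, 9.25, 9.25 and 8.91 in KI Tregs and 8.87, 9.33, 9.28 and 9.17 in KI Tconv. The groups overlapped in each comparison. Tregs minus Tconv was -0.13 (95% interval -0.34 to 0.07) in WT and -0.04 (-0.25 to 0.16) in KI mice. KI minus WT was 0.15 (-0.05 to 0.36) in Tregs and 0.06 (-0.14 to 0.27) in Tconv. Changes smaller than these intervals could not be detected with 4 arrays per group.

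Dnmt3a (chr12:3801559-3914443), a de novo methyltransferase, was higher in Tregs by a like amount in both genotypes. It read 8.76, 8.82, 8.66 and 8.56 in WT Tregs against 8.34, 8.38, 8.41 and 8.16 in WT Tconv. In KI mice it read 8.61, 8.69, 8.88 and 8.63 in Tregs against 8.17, 8.48, 8.39 and 8.16 in Tconv. All 8 Treg arrays were above all 8 Tconv arrays. The difference was 0.38 (SE 0.0907, limma adjusted p = 0.00318) in WT and 0.40 (SE 0.0907, limma adjusted p = 0.00162) in KI mice. It passed under all 29 tested alternatives in WT and under 28 of 29 in KI mice, where the probe set of highest variance gave 0.39 with a limma adjusted p of 0.0821. KI minus WT was 0.00 in Tregs (95% interval -0.19 to 0.19) and -0.02 in Tconv (-0.21 to 0.17), less than the spread between arrays.

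All 5 Dnmt3a probe sets read higher in Tregs, but the size differed between them. In WT mice the Treg minus Tconv difference was 0.84 for 1423065_PM_at, 0.73 for 1423066_PM_at, 0.54 for 1423064_PM_at, 0.42 for 1460324_PM_at and 0.38 for 1423063_PM_at, which represents the gene. All but 1460324_PM_at (limma adjusted p = 0.0768 over probe sets) passed in a fit over 12927 probe sets. In KI mice the 5 differences were 0.39, 0.37, 0.34, 0.41 and 0.40 in the same order, and the representative probe set was the one that passed.
The probe set 1423065_PM_at read 8.63, 8.73, 8.61 and 8.70 in WT Tregs against 7.58, 8.00, 7.70 and 8.03 in WT Tconv. In KI mice it read 8.13, 8.12, 8.71 and 8.68 in Tregs against 7.73, 8.37, 8.32 and 7.65 in Tconv, with overlap. Its interaction of -0.45 (SE 0.243, limma adjusted p = 0.760 over probe sets) did not pass, so the smaller KI difference is not established.

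Dnmt3b (chr2:153649411-153687730), the other de novo enzyme, lay between 5.76 and 6.25 in WT Tregs, between 5.96 and 6.27 in WT Tconv, between 5.75 and 6.25 in KI Tregs and between 6.16 and 6.24 in KI Tconv. All groups overlapped in the comparisons made. Its largest difference was -0.22 in KI Tregs against KI Tconv (95% interval -0.48 to 0.04, limma adjusted p = 0.165). The second Dnmt3b probe set averaged 4.43 to 4.64 per group, under the filter, and passed no exact permutation test (lowest exact p = 0.143).

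Tet2 (chr3:133463677-133545136), a methylcytosine dioxygenase, read 9.47, 9.60, 9.47 and 9.36 in WT Tregs against 9.34, 9.18, 9.16 and 8.93 in WT Tconv. The gap between the groups was narrow, from 9.34 to 9.36. In KI mice it read 9.33, 9.52, 9.59 and 9.13 in Tregs against 9.22, 9.29, 9.29 and 8.89 in Tconv, and KI Treg replicate 4 lay among the Tconv arrays. The WT difference of 0.32 (SE 0.110, limma adjusted p = 0.0307) passed, and the KI difference of 0.22 (95% interval -0.01 to 0.45, limma adjusted p = 0.121) did not. The interaction was -0.10 (95% interval -0.43 to 0.23), so the WT and KI differences were not shown to differ. The WT call was lost without any 1 of WT Treg replicates 1, 2 and 3 or WT Tconv replicates 2, 3 and 4 (limma adjusted p = 0.0513 to 0.106), although the difference stayed at 0.25 to 0.33. The KI call appeared without KI Treg replicate 4 (0.31, limma adjusted p = 0.0294), without the arrays numbered 24 to 27 (0.22, adjusted p = 0.0443) and with the runs as a block (0.22, adjusted p = 0.0156 for 2 runs and 0.0143 for 3). The second Tet2 probe set, 1455300_PM_at, gave 0.25 (limma adjusted p = 0.0477 over probe sets) in WT and 0.23 (0.0586) in KI mice.

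Tet3 (chr6:83362373-83457208) lay near the filter, between 4.75 and 5.52 over all arrays, and its groups overlapped throughout. Its 4 differences ran from -0.18 to -0.06, and none passed. Mbd2 (chr18:70568225-70629134) lay between 10.56 and 11.00 over all arrays. Its Treg minus Tconv difference was 0.09 (95% interval -0.07 to 0.26) in WT and 0.02 (-0.15 to 0.18) in KI mice. The other Mbd2 probe set, 1425803_PM_a_at, read 8.67 to 8.86 in WT Tregs and 8.44 to 8.58 in WT Tconv without overlap, a difference of 0.21 that passed over probe sets (limma adjusted p = 0.0321). Its KI difference was 0.07, and the interaction of -0.14 did not pass (limma adjusted p = 0.859).

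**Figure D3:**
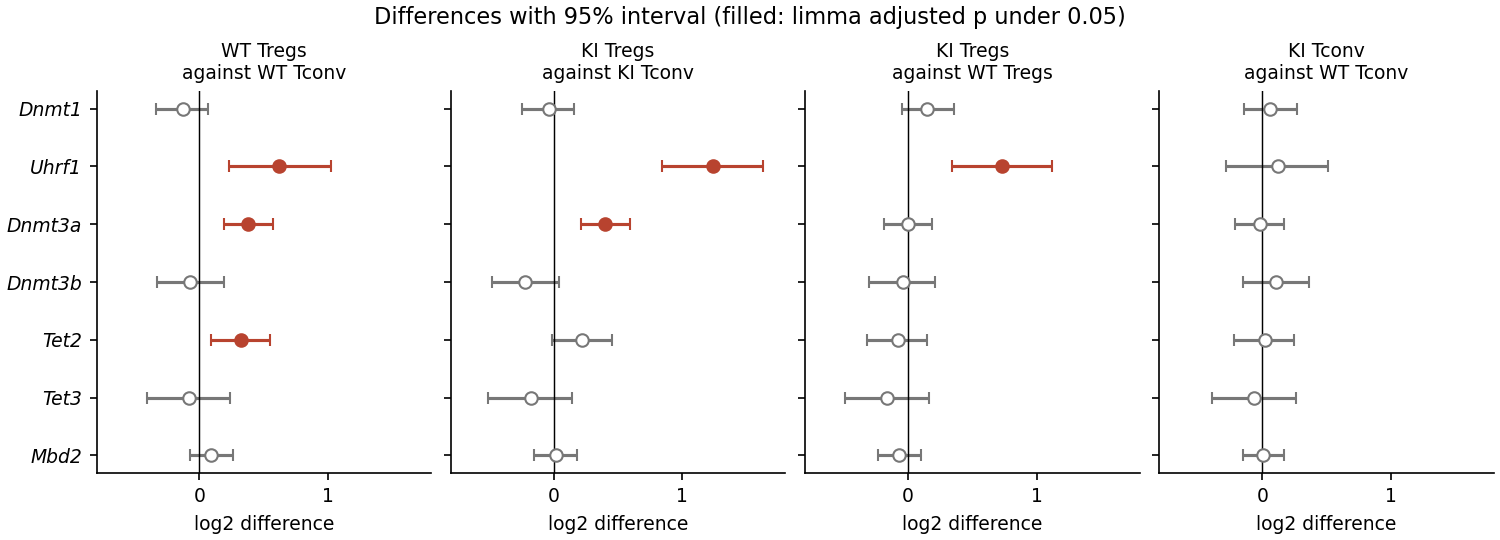
Log2 differences of the 7 genes in 4 comparisons, with 95% intervals from limma (filled symbols passed at an adjusted p under 0.05, n = 4 arrays per group). Uhrf1 (0.62 and 1.24) and Dnmt3a (0.38 and 0.40) stand to the right of 0 in both Treg against Tconv panels, and every interval in the Tconv panel spans 0.

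**Figure D4:**
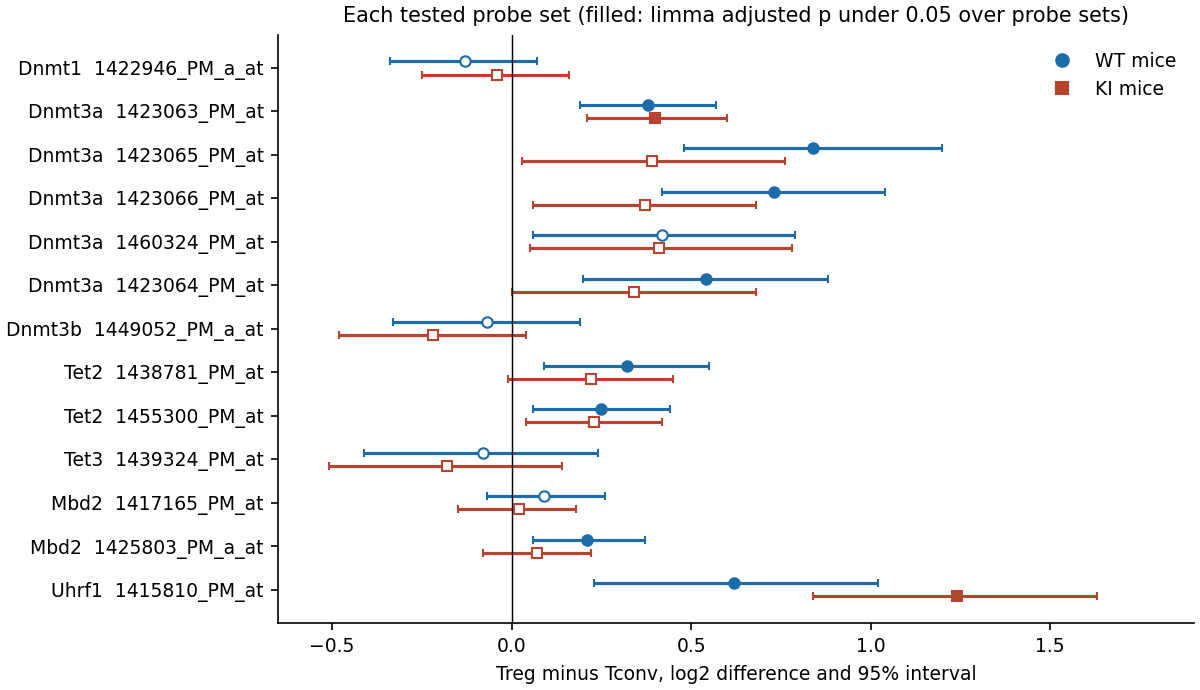
Treg minus Tconv difference in log2 expression for each of 13 probe sets that passed the filter, in WT (circles) and KI mice (squares), with 95% intervals (filled symbols passed over probe sets). The Dnmt3a probe sets range from 0.38 to 0.84 in WT mice and from 0.34 to 0.41 in KI mice.

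Counted by probe set, 8 of 13 were higher in Tregs of WT mice and 2 of 13 in Tregs of KI mice. These stand beside 30.4% and 37.2% of all probe sets that passed in either direction and 14.7% and 18.3% as higher in Tregs. The 8 belong to Dnmt3a, Tet2, Mbd2 and Uhrf1 alone. Probe sets of the same gene are repeated readings, so 8 of 13 does not count independent members. Between KI and WT Tregs 0 of 13 passed, with 1 at an unadjusted limma p under 0.05, beside 1.98% of all probe sets (1.32% as higher in KI). There Uhrf1 had a limma adjusted p of 0.0568. Between KI and WT Tconv 0 of 7 members passed with limma, and 0 had an unadjusted p under 0.05, beside 0.135% of all genes. By probe set 0 of 13 passed there, with 0 at an unadjusted limma p under 0.05, beside 0.0928% of all probe sets. The arrays of the KI and WT Tconv groups overlapped for every member, and did not overlap for 3.74% of all genes. In the interaction 0 of 7 passed and 1, Uhrf1, had an unadjusted limma p under 0.05, beside 0.786% of all genes, 0.663% as positive. By probe set it was 0 of 13, with 1 at an unadjusted limma p under 0.05, beside 0.511% of all probe sets, 0.449% as positive.

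The partners of the writers were mixed. Of 7 tested, 3 were higher and 1 lower in Tregs in each genotype, beside 34.6% of all genes that passed in WT and 41.1% in KI mice. Uhrf2, a relative of Uhrf1, was higher by 0.41 in WT Tregs (limma adjusted p = 0.000224) and 0.59 in KI Tregs (limma adjusted p = 3.16e-06). Hells, a chromatin remodeller needed for DNA methylation, was higher by 0.37 and 0.63, and Ehmt2, a histone H3 lysine methyltransferase, by 0.32 and 0.53. Usp7, a deubiquitinase that binds Dnmt1 and Uhrf1, was lower (-0.30 and -0.39). Pcna belongs to this list and to the replication list. The median over the list was -0.01 in WT and 0.03 in KI mice, against -0.03 and -0.02 over all genes.

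Of 7 tested genes of a list of other methyl-CG readers and their relatives, 1 was higher and 1 lower in Tregs of each genotype. The shares of all genes that passed were 34.6% in WT and 41.1% in KI mice. Zbtb38 averaged 5.33 and 5.14 in WT and KI Tregs and 4.12 and 4.35 in the matching Tconv, under the highest control reading. It was therefore tested through its Treg values, and the size of its difference is not known. Mbd4, a thymine glycosylase, was lower (-0.40 and -0.35). Of 13 tested NuRD genes, which include Mbd3 from the former list, 3 were higher and 0 lower in WT Tregs and 3 higher and 1 lower in KI Tregs, a smaller share than the 34.6% and 41.1% of all genes. The deacetylase Hdac1 was higher by 0.44 (limma adjusted p = 0.000116) and 0.32 (limma adjusted p = 0.00173), and the remodeller Chd3 by 0.26 and 0.24. Mta3 was higher by 0.35 in WT Tregs, Gatad2a by 0.28 in KI Tregs, and Hdac2 was lower in KI Tregs (-0.23). The NuRD medians were 0.11 and 0.06.

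Downstream of the Tet enzymes, 3 of 12 tested demethylation and base repair genes were higher and 1 lower in WT Tregs, and 3 higher and 2 lower in KI Tregs, near the 34.6% and 41.1% of all genes. Gadd45g and Gadd45b, stress-induced genes that have been linked to active demethylation, had the largest rises. Gadd45g was higher by 1.79 in WT (limma adjusted p = 0.000599) and 1.68 in KI Tregs (limma adjusted p = 0.000872), from a WT Tconv mean of 4.75 that is close to the highest control reading. Gadd45b was higher by 1.51 (limma adjusted p = 8.92e-06) and 1.54 (limma adjusted p = 5.52e-06). The DNA glycosylase Neil1 was higher by 0.36 and 0.55, Ung was lower in WT Tregs (-0.54), and Smug1 was lower in KI Tregs (-0.50). Gadd45a was the gene of this list that passed between KI and WT Tregs (0.74, limma adjusted p = 0.0337, arrays not overlapping). This was 1 of 12, beside 2.84% of all genes in either direction and 1.99% as higher in KI. Arrays of these groups did not overlap for 8.12% of all genes. Genotype and array number are confounded here as for Uhrf1. The median over the list was -0.05 in WT and 0.04 in KI mice.

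Of 6 tested cofactor and partner genes of the Tet enzymes, 1 was lower and 0 higher in Tregs of each genotype. This was a smaller share than the 34.6% of all genes that passed in WT and 41.1% in KI mice. The gene was Idh2, the mitochondrial isocitrate dehydrogenase that makes the Tet substrate 2-oxoglutarate. Its difference was -0.96 in WT (limma adjusted p = 1.8e-07) and -0.79 in KI mice (limma adjusted p = 1.72e-06). In the cycle that supplies methyl groups, 3 of 7 tested genes were lower and 0 higher in WT Tregs, beside 34.6% of all genes in either direction. These were Mtrr (-0.38) and Mtr (-0.32, limma adjusted p = 0.0499), which remake methionine, and the folate enzyme Mthfd1 (-0.28). In KI Tregs Mtrr was lower (-0.31), and Ahcy, which clears the methyltransferase by-product S-adenosylhomocysteine, was higher by 0.24 (limma adjusted p = 0.0412). These were 1 lower and 1 higher of 7, beside 41.1% of all genes in either direction.

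**Figure D5:**
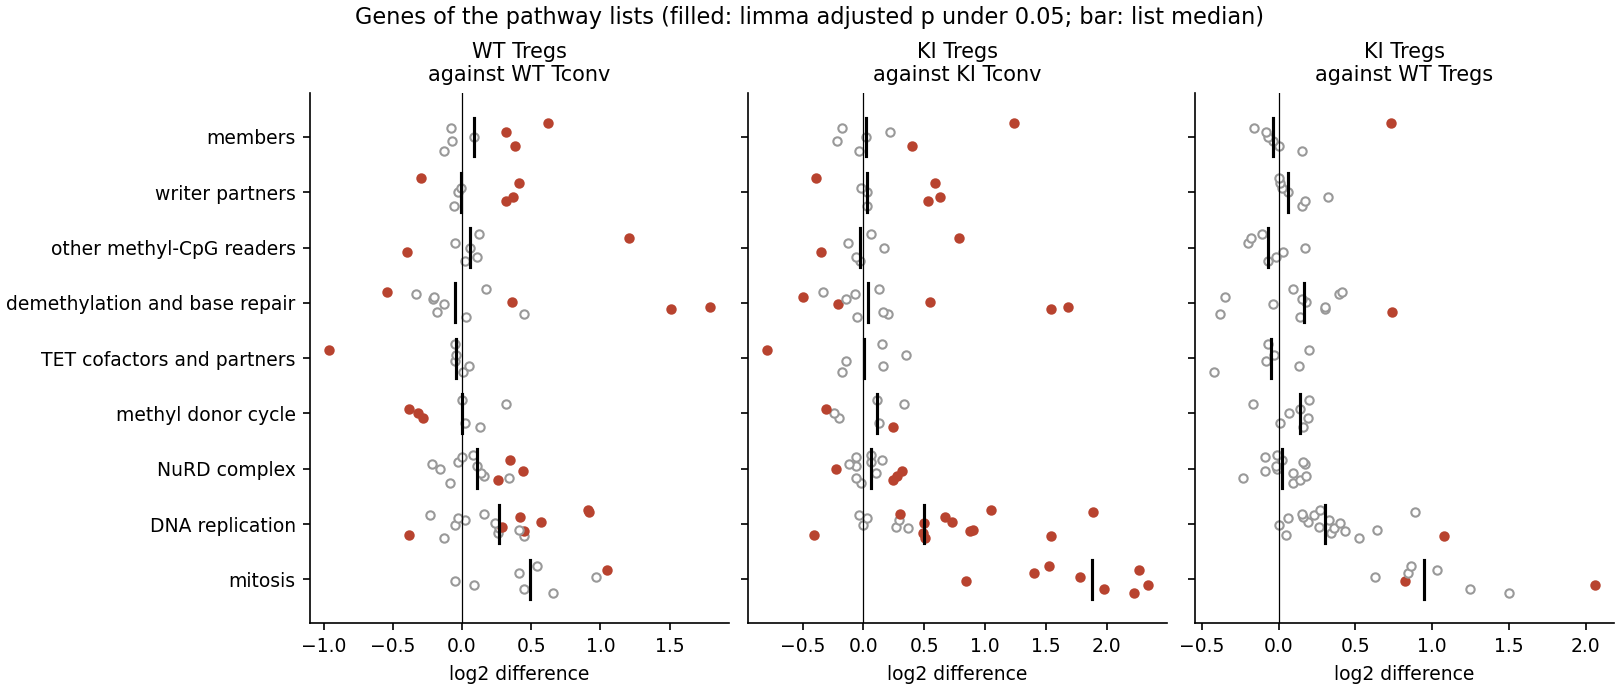
Log2 difference of each tested gene of the pathway lists in 3 comparisons (filled points passed with limma at an adjusted p under 0.05, black bars are list medians). The mitosis genes have a median of 1.88 in KI Tregs against KI Tconv, whereas in both Treg against Tconv panels the medians of the writer partner, reader and NuRD lists lie between -0.03 and 0.11.

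Genes that Treg-specific demethylation is known to accompany were read on the same arrays. The 6 (Foxp3, Il2ra, Ctla4, Ikzf2, Ikzf4 and Tnfrsf18) are Treg markers by definition, and every Treg array was above every Tconv array for each. Foxp3 and Il2ra did not exceed 5 on any Tconv array, so the sizes of their differences are not known. Between the Tconv groups all 6 differences were negative in KI mice and 2 passed, beside 0.135% of all genes. These were Foxp3, which lay under 5 in both, and Ikzf2, at 8.02 to 8.37 in KI and 8.91 to 9.06 in WT Tconv (limma adjusted p = 5.8e-06). The Tconv that serve as the reference in each genotype therefore differed in Ikzf2. The interaction also passed for Ikzf2 (0.75, limma adjusted p = 0.00139), 1 of 6, beside 0.786% of all genes. Between the Treg groups Ctla4 was higher in KI mice by 0.64 (limma adjusted p = 0.0358), 1 of 6, beside 2.84% of all genes. The part of these differences in those of the members was not tested, and methylation itself was not measured.

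Markers of other cells were examined beside these results. The CD3 genes ranged alike in all groups, while the Treg minus Tconv difference of Cd4 was -0.71 in WT and -0.49 in KI mice and that of Cd5 was 0.62 and 0.59. The mean of the CD8 list (2 of 2 tested) ranged from 6.11 to 6.45 in WT Tregs and 4.80 to 5.19 in WT Tconv, and from 5.85 to 6.26 and 5.18 to 5.61 in KI mice, through Cd8a. The mean of the dendritic list (2 of 6 tested) ranged from 8.18 to 8.46 against 7.03 to 7.48 in WT and from 8.28 to 9.00 against 7.26 to 7.51 in KI mice, through Irf8 and Cst3. The defining genes Flt3, Zbtb46 and Itgax did not exceed 5 on any array. The mean of the NK list (3 of 6 tested) was lower in Tregs, at 4.79 to 5.63 against 6.71 to 6.90 in WT and 5.21 to 5.76 against 6.65 to 6.99 in KI mice, through Klrd1 and Prf1. Eomes went the other way (6.22 to 7.21 in WT Tregs against 5.21 to 6.03 in WT Tconv, and 6.19 to 6.83 against 5.30 to 6.01 in KI mice), while Ncr1 and Klrb1c did not exceed 5 on any array.
The B cell list (4 of 7 tested) ranged from 5.18 to 7.58 in WT Tregs and 5.35 to 7.53 in WT Tconv. It ranged from 5.14 to 7.07 in KI Tregs and 4.71 to 6.53 in KI Tconv. Cd79a and Pax5 were under 5 on every array. Cd79b was higher in Tregs by 1.15 and 1.38, and was the 1 of 4 that passed in each genotype. These stand beside 34.6% and 41.1% of all genes. The difference was positive for 2 of 4 in WT and 4 of 4 in KI mice (medians 0.05 and 0.33). The neutrophil list (3 of 6 tested) ran from 3.47 to 8.84, 4.88 to 7.63, 5.29 to 8.46 and 4.14 to 7.54 in the same groups. The monocyte list (2 of 6 tested) ran from 4.90 to 8.01, 4.75 to 6.45, 4.65 to 7.98 and 4.50 to 6.24. Cd68 was higher in KI Tregs by 1.24 (limma adjusted p = 0.0332, with overlap), and 0 of 2 passed in WT mice. It reached 6.21 in WT and 6.61 in KI Tregs, but 4.29 at most in Tconv, under the highest control reading. Adgre1 reached 6.24 and 6.25 in Tregs and 4.24 at most in Tconv. Csf1r and Itgam did not exceed 5 on any array. The tested erythroid gene Hba-a1 spanned 9.24 to 12.49 in WT Tregs and 8.24 to 12.52 in WT Tconv, and 8.63 to 12.01 and 8.20 to 11.03 in KI Tregs and Tconv. The part of these cells in the differences of the members was not tested.

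Dnmt3a and Tet2 had the highest pairwise correlation among the 7 members, at 0.845 over log2 values and 0.741 over deviations from the group means (16 arrays, shared groups and processing). The tested genes most like Dnmt3a in log2 values were Pbx2 (0.941), Hivep3 (0.934) and Gnb4 (0.931), and those most like Tet2 were Itpr2 (0.888), Ankrd27 (0.872) and Myo1d (0.868). Over deviations from group means they were Phgdh (0.913), Srrt (0.901) and Katnbl1 (0.893) for Dnmt3a, and Rfx5 (0.926), Thrap3 (0.922) and Tbc1d5 (0.909) for Tet2. For Dnmt1, values ran most like those of Ap3d1 (0.844), and deviations most like those of Lat (0.919).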

How the data were processed

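Per the submitters' processing notes, the authors deposited log2 expression values per probe set made with RMA in Partek 6.5. Per the labels' protocols, sorted cells went straight into lysis, and TRIZOL-extracted RNA was turned into biotinylated cRNA with the Affymetrix 3' IVT Express kit. RMA subtracts background and equalises the arrays' distributions, so a shift shared by all genes is not visible.

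The members and gene lists were chosen with earlier results of these data known. Probe sets were named from the array's annotation (28898 with 1 gene, 551 with several, 15588 with none listed, 104 controls), with symbols updated by Entrez identifier. Each gene was represented by the probe set of highest mean. Genes above a log2 value of 5 on at least 4 of 16 arrays were tested (8139 of 17097), and separately 12927 probe sets. Of 15 member probe sets, 13 passed.

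Group means were fitted with limma 3.58.1 in R 4.3.3, with a trend in the variances. The fitting script was tested on simulated data. P-values were two-sided with Benjamini-Hochberg adjustment. Member probe sets under the filter had exact permutation tests. Genes named are all members, up to 4 passing genes per list and comparison by size, and the 3 most correlated genes per member, for which some are given. Lists of platelet and plasma cell markers were also examined. No platelet gene passed the filter. Of the plasma cell list (2 of 4 tested), Xbp1 was higher in Tregs by 0.67 in WT and 0.69 in KI mice. The difference was positive for 1 of 2 in WT and 2 of 2 in KI mice. Jchain did not pass, and its groups overlapped. It spanned 2.31 to 9.13 in WT Tregs and 5.87 to 8.62 in WT Tconv. In KI mice it spanned 5.21 to 8.72 in Tregs and 5.10 to 8.15 in Tconv. Tnfrsf17 did not exceed 5 on any array. Replicate numbers follow sample order and pair nothing. Alternatives changed the probe set, filter, variance model, samples and array runs, and left out each array. Promoter windows came from RefSeq, and protein sequences were not used here.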

Additional observations from a re-analysis of the deposited data

Results flagged for a closer look

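Among 60 sets of 4 arrays (15 probe sets in 4 groups), 1 held an array that lay far from the other 3 by Dixon's criterion. Dnmt1 read 8.98 in WT Tconv replicate 3 and 9.13 to 9.14 on the other WT Tconv arrays, a gap of 0.938 of the range. Chance gives about 1 in 20 such groups.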

How the results depend on the processing

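Under 30 alternative settings, none of the 6 differences that passed changed sign in any. Among 858 alternative values of the 29 differences that did not pass, 66 changed sign and 7 passed, namely Tet2 (4) and Dnmt3b (2) in KI Tregs against KI Tconv and Mbd2 (1) in WT Tregs against WT Tconv. Uhrf1 in KI Tregs against KI Tconv passed under all 29 tested alternatives (0.87 to 1.38). In WT mice Uhrf1 passed under 27 of 29, and with the mean over the probe sets of each gene it was 0.43 (limma adjusted p = 0.0704).

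Leaving out 1 array at a time left 1 to 3 members between WT Tregs and WT Tconv, with 1 without WT Treg replicate 2, and 0 to 1 between KI and WT Tregs. In the latter, 0 members passed with the mean over probe sets, the probe set of highest variance, no filter, no variance trend, only the groups compared, the 3 runs as a block, or the runs as a random block (correlation 0.126). The probe set of highest variance left 1 member in KI Tregs against KI Tconv. Of the member probe sets, 5 instead of 8 passed in WT mice without a filter, and 5 instead of 2 in KI mice with the 3 runs as a block. The cause was not tested. No paired analysis was possible because the replicate numbers follow sample order and the labels pair no arrays. With 4 arrays per group, and with Tet3 close to the highest control reading and Uhrf1 and Dnmt3b at low levels, small differences could not be detected.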

Other observations

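Other pairs of members also varied together or apart within groups, given here as descriptions over 16 arrays. Over deviations from the group means, Tet2 and Uhrf1 had a correlation of 0.737, Dnmt1 and Tet3 of -0.611, and Dnmt1 and Mbd2 of -0.606. Deviations of Tet3, a gene near background, ran most like those of Arid4a (0.941) and Chd4, a NuRD remodeller (0.913), and those of Dnmt3b most like Ints1 (0.878) and Ep400 (0.871). Log2 values of Mbd2 ran most like those of the respiratory chain gene Ndufa5 (0.777).

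The Dnmt3a probe set 1460324_PM_at read 5.99 in KI Tconv replicate 1 and 6.71 to 7.16 on the other KI Tconv arrays.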
